A study of Mus musculus with 8 samples.

Results

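Homologous recombination and Fanconi repair genes were followed in mouse skin epithelium in which the acetyltransferase MOF or its partner KANSL1 had been removed. The set was a named list of 33 genes, all found by symbol among the 23432 gene symbols of each library. Bulk RNA was sequenced from 8 libraries in 4 groups of 2. At E16.5, an embryonic stage, K14-H2BGFP+ epithelial cells were sorted from the back skin of MOFfl/fl/K14Cre embryos (MOF cKO) and of controls. At P0.5, just after birth, total epidermal cells were taken from Kansl1fl/fl/K14Cre pups (Kansl1 cKO) and from controls, after the epidermis had been lifted from the dermis with dispase. Controls were littermates, wildtype or heterozygous in the MOF line per the study's text, and all mice were of a mixed C57Bl/6J and CD-1 background. All E16.5 cells carried the K14-H2BGFP transgene they were sorted on, and the Kansl1 allele loses exon 3. Krt14-Cre acts in the keratin 14 lineage of the skin epithelium, so dermal and immune cells of a cKO kept their intact alleles.

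Homologous recombination copies the missing information at a DNA break from the sister chromatid. BRCA1, BARD1, PALB2 and BRCA2 prepare resected single strands for the search, and the XRCC2 and XRCC3 group and the RAD54 proteins help the strand to invade the partner duplex. The Fanconi pathway unhooks crosslinks between the strands: a core complex attaches ubiquitin to the FANCD2-FANCI pair, which then calls in nucleases and recombination proteins. Both pathways are used mostly by cells that copy their DNA, and keratinocytes of embryonic epidermis divide often. In bulk RNA, fewer cells of a type and less RNA per cell cannot be told apart.

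Libraries held 22484018 to 27561688 counts on genes at E16.5 and 9108709 to 19774643 at P0.5. The targeted gene of the MOF cKO, listed as Kat8, stood at 14.4 and 14.7 CPM (counts scaled to a common library depth) in the controls and 12.4 and 13.9 CPM in the MOF cKO libraries (log2 fold change -0.14, SE 0.179, adjusted p = 0.554 in edgeR). Kansl1 stood at 40.7 and 48.2 CPM in the P0.5 controls and 31.4 and 30.6 CPM in the Kansl1 cKO libraries (log2 fold change -0.52, SE 0.167, edgeR adjusted p = 0.242). Counts cover whole genes, and RNA that lacks only the floxed exons is still counted, so neither value checks the labels. Epithelial markers were high in each library: the 8 genes of that list summed to between 34037.3 and 45371.6 CPM at E16.5.

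Of the recombination and Fanconi genes, 14 fell in MOF cKO epithelium and 0 rose. A gene was called where edgeR's quasi-likelihood test gave an adjusted p under 0.01 over all tested genes and the fold change was over 1.5. By that rule 9.59% of the 13956 tested genes were lower and 10.0% were higher, against 42.4% of the 33 repair genes lower. The median log2 fold change of the 33 genes was -0.72, beside -0.02 for all tested genes, and 30 of them lay below 0. Both MOF cKO libraries stood below both controls for 27 of the 33 genes and above both for 1, whereas 37.7% and 34.9% of all tested genes did so. All 33 genes passed the filter on low counts. Summed over the 33 genes, the controls held 905 and 840 CPM and the MOF cKO libraries 560 and 540 CPM.

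**Figure D1:**
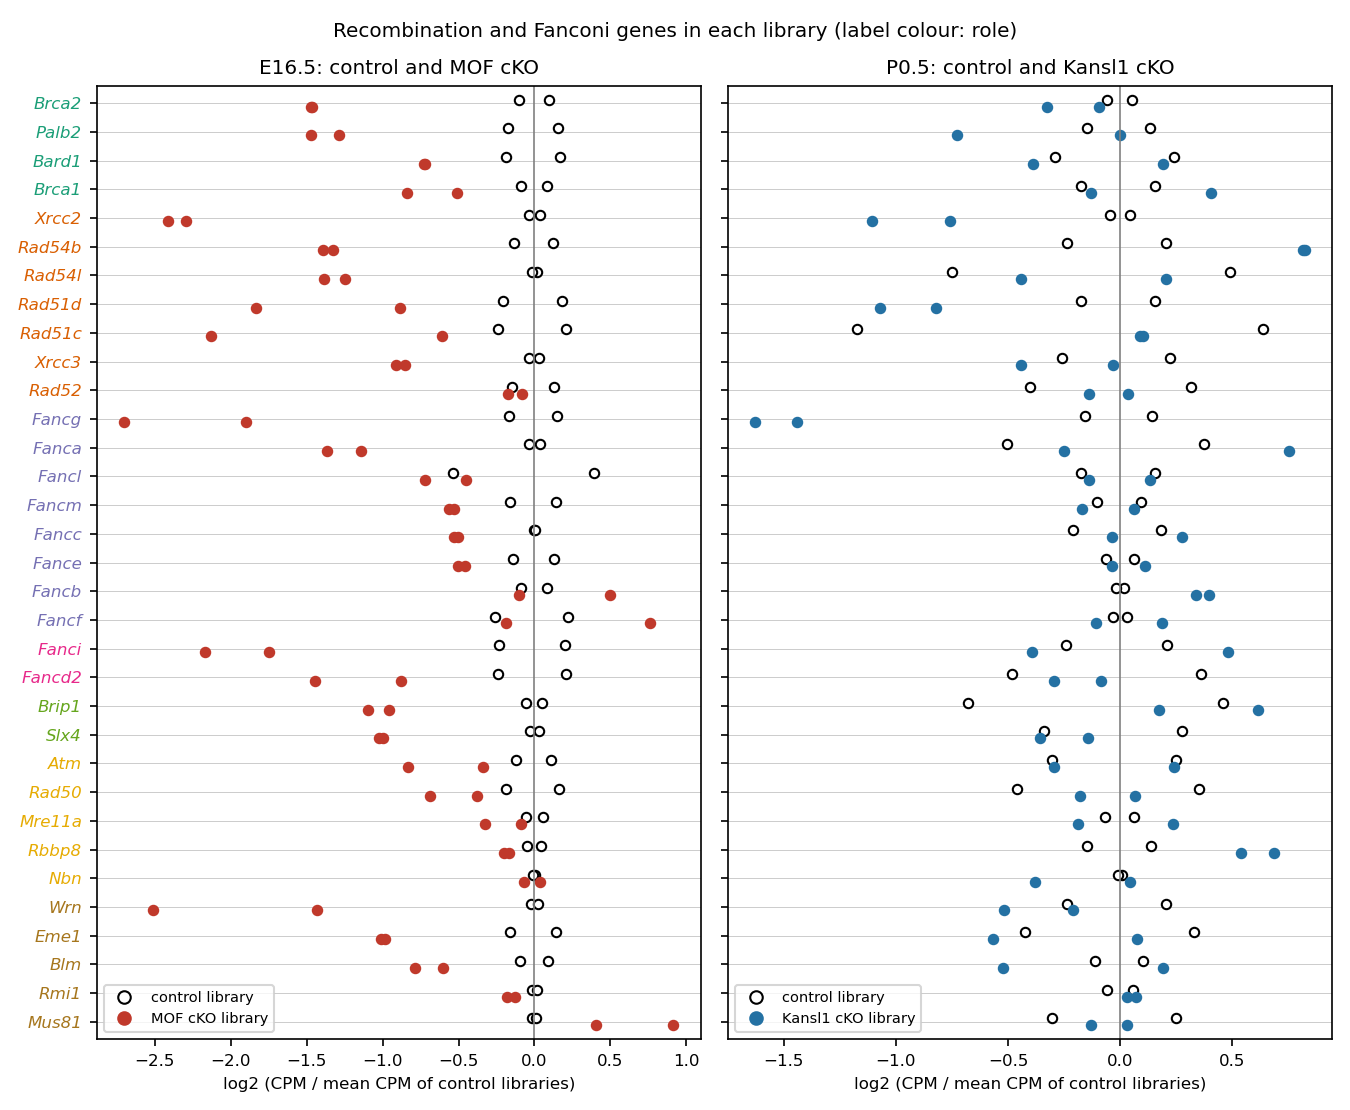
Each point is a library: the horizontal axis is log2 of its CPM over the mean CPM of the 2 control libraries of the same stage, with 1 row per gene and the label coloured by role. On the left both MOF cKO libraries lie below both controls for 27 of 33 genes, led by Xrcc2, Fancg, Fanci and Wrn; on the right the control and Kansl1 cKO libraries overlap for most genes.

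The genes that fell include some whose upstream bases lie outside any annotated exon, and those bases are shown for that reason. RefSeq windows of 300 bp, from 250 before to 50 after a start (GRCm38.p6), were at hand for 25 of the 33 genes, 28 windows in all; Rad51d, Xrcc2, Rad54b, Fancd2, Rad50, Nbn, Rbbp8 and Wrn had no entry. The 4 stretches below belong to the called genes with the largest falls among those with at least 100 bases outside every annotated exon. They are written 5′ to 3′ on the strand of the gene, in GRCm38 coordinates. Capitals mark every match, on either strand, to the motifs searched: E2F as TTTNNCGC, CCAAT, CHR as TTTGAA, part of an RFX site as GTTGCCA, NRF1 as TGCGCATGC and ETS as CCGGAAG.
Brca2, chr5:150522371-150522620, plus strand: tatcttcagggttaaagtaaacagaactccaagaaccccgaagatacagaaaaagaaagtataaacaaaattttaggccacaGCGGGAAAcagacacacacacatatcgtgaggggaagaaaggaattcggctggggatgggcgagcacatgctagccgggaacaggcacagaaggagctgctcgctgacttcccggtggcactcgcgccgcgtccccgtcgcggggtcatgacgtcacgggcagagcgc
Rad54l, chr4:116123691-116123839, minus strand: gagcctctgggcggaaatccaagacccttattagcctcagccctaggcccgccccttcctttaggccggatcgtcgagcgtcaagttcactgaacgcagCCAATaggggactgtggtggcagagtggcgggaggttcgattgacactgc
Fanca, chr8:123318577-123318826, minus strand: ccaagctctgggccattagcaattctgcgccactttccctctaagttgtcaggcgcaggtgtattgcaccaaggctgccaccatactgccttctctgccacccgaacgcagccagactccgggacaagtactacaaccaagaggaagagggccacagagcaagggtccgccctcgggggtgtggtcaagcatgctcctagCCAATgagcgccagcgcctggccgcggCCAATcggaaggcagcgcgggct
Brip1, chr11:86201194-86201369, minus strand: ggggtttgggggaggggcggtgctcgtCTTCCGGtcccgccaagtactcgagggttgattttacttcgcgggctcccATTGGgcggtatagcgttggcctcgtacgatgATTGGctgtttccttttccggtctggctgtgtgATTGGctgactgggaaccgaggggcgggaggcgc

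The 28 windows came from 25 genes, and windows of the same gene were counted separately. Those of Rad54l nearly coincide, so its CCAAT was counted in each. Over the 28 windows of these genes, the E2F letters occurred in 7 (25%), beside 5.17% of all 32851 RefSeq windows. CCAAT was present in 18 (64.3%) beside 37.4%, and the ETS letters in 6 (21.4%) beside 8.86%. The RFX letters were found in 2 windows (7.14%) beside 4.38%, those of Fancc and Fancm. CHR letters occurred in 2 (7.14%) beside 17.9%, and the NRF1 letters in 0 beside 1.52%. The E2F letters were in windows of Bard1, Brca2, Brip1, Fancg, Rad51c and Rmi1. Of these 6 genes, Brca2, Brip1 and Fancg were called lower in MOF cKO, while Rmi1 had a log2 fold change of -0.15. A match is a run of letters and no measure of binding.

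Among the BRCA mediators, Brca2 and Palb2 fell. Brca2 (chr5:150522630-150570329), which acts on resected single strands, stood at 38 and 33.1 CPM in the controls and at 12.9 and 12.8 CPM in the MOF cKO libraries. The change was 2.77-fold, a log2 fold change of -1.47 (SE 0.154, edgeR adjusted p = 0.000763). Palb2 (chr7:122107262-122132985), the bridge between BRCA1 and BRCA2, went from 15.6 and 12.5 CPM to 5.07 and 5.76 CPM, a 2.59-fold fall (log2 -1.37, SE 0.237, edgeR adjusted p = 0.00429). The ubiquitin ligase pair at the head of the pathway did not pass the test. Brca1 stood at 51.8 and 46.1 CPM in controls and 27.4 and 34.5 CPM in MOF cKO (log2 -0.66, SE 0.154, edgeR adjusted p = 0.0135), and its partner Bard1 at 23.6 and 18.5 against 12.7 and 12.8 CPM (log2 -0.72, SE 0.187, edgeR adjusted p = 0.0202). For all 4 mediators the MOF cKO libraries lay below both controls, as they did for 37.7% of all tested genes. DESeq2 called Brca1 lower (adjusted p = 0.0042).

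Xrcc2 had the largest fall of the 33 genes. This gene of strand exchange (chr5:25689812-25705825) was at 16.4 and 15.6 CPM in the controls and at 3.26 and 3.01 CPM in the MOF cKO libraries. That is 5.11-fold, a log2 fold change of -2.35 (SE 0.229, edgeR adjusted p = 0.000645). The groups were far apart and each was tight. Xrcc3 (chr12:111803192-111813873), a further gene of this step, fell from 23.6 and 22.6 CPM to 12.3 and 12.8 CPM (log2 -0.88, SE 0.16, edgeR adjusted p = 0.00525). Rad51d and Rad51c, of the same step, had log2 fold changes between those of Xrcc2 and Xrcc3 but wide spreads. Rad51d read 17.6 and 23.1 CPM in controls and 5.72 and 11.1 CPM in MOF cKO (log2 -1.27, SE 0.315, edgeR adjusted p = 0.017). Rad51c read 7.44 and 10.1 against 2.01 and 5.76 CPM (log2 -1.17, SE 0.477, edgeR adjusted p = 0.0906). In both genes the first MOF cKO library was the lower one and neither MOF cKO library reached a control.

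The RAD54 translocases, which drive strand invasion, fell together. Rad54l (chr4:116094264-116123690) stood at 22.9 and 22.3 CPM in controls and at 8.63 and 9.53 CPM in MOF cKO (2.48-fold, log2 -1.31, SE 0.173, edgeR adjusted p = 0.00155). Rad54b (chr4:11558922-11615805) stood at 27.4 and 22.9 CPM in controls and at 10 and 9.57 CPM in MOF cKO (2.56-fold, log2 -1.36, SE 0.178, edgeR adjusted p = 0.00152). The libraries overlapped for Rad52, an annealing protein, at 15.3 and 12.6 CPM in controls and 13.2 and 12.4 CPM in MOF cKO (log2 -0.13, SE 0.193). In all, 4 of the 7 genes of strand exchange were called lower.

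The Fanconi core complex moved unevenly, with 2 of its 8 measured genes called lower. Fancg (chr4:43002343-43010506), a scaffold subunit of the core, fell 4.77-fold from 18.9 and 23.5 CPM to 5.67 and 3.26 CPM (log2 -2.25, SE 0.292, edgeR adjusted p = 0.00146). Fanca (chr8:123268300-123318576), which binds FANCG, fell 2.37-fold from 42.2 and 44.3 CPM to 16.8 and 19.6 CPM (log2 -1.25, SE 0.146, edgeR adjusted p = 0.00103). The subunits Fancc and Fance and the anchor Fancm had log2 fold changes of -0.52, -0.48 and -0.54 with edgeR adjusted p of 0.0344, 0.0406 and 0.0349. Their MOF cKO libraries lay below both controls, as for 37.7% of all tested genes. Fancl, the ubiquitin ligase itself, overlapped between groups, at 12.7 and 6.68 CPM in controls and 5.87 and 7.11 CPM in MOF cKO, with a log2 fold change of -0.58 (SE 0.345). Fancb and Fancf lay above 0, at 0.23 (SE 0.283) and 0.36 (SE 0.526) on the log2 scale, with overlapping groups. Fancf had the fewest counts of the list over the E16.5 libraries together, 43 to 70 in each.

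Downstream of the core, Fanci (chr7:79391929-79450264) of the ubiquitinated pair fell 3.86-fold. It was at 29.1 and 21.6 CPM in controls and at 7.53 and 5.63 CPM in MOF cKO (log2 -1.95, SE 0.236, edgeR adjusted p = 0.00114). Its partner Fancd2 was at 23.2 and 17 CPM against 10.9 and 7.37 CPM and missed the threshold (log2 -1.14, SE 0.257, edgeR adjusted p = 0.0118). The helicase and the nuclease scaffold that act after them were both called. Brip1 (chr11:86058138-86201193), the helicase that binds BRCA1, fell from 17.8 and 19.1 CPM to 8.63 and 9.49 CPM (log2 -1.02, SE 0.183, edgeR adjusted p = 0.00489). Slx4 (chr16:3979105-4003770), the scaffold for junction nucleases, fell from 22.6 and 23.5 CPM to 11.3 and 11.6 CPM (log2 -1.01, SE 0.162, edgeR adjusted p = 0.00327). DESeq2 also called Rad51d and Fancd2, which brought its count of repair genes to 17 lower, where it called 12.4% of all tested genes lower.

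Of the 5 genes of end sensing and resection, 0 were called in edgeR, in which 2 had an unadjusted p under 0.05 (as did 6820 of all 13956 tested genes), and 0 were called in DESeq2. Nbn, the sensor subunit that recruits ATM, was at 27.2 and 27 CPM in controls and 27.8 and 25.9 CPM in MOF cKO (log2 -0.016, SE 0.138). The nuclease gene Mre11a and the resection factor Rbbp8 had log2 fold changes of -0.20 (SE 0.145) and -0.19 (SE 0.108). Rad50, the structural arm of the same complex, and the kinase Atm had values of -0.52 (SE 0.171) and -0.57 (SE 0.19), with edgeR adjusted p of 0.0456 and 0.0496. Apart from Nbn, the MOF cKO libraries of these genes lay below the controls, as they did for 37.7% of all tested genes. For Mre11a and Rbbp8 the edgeR adjusted p was 0.305 and 0.211.

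Of the helicases and junction nucleases, 3 of 5 were called lower. Wrn (chr8:33234384-33385527), a RecQ helicase with an exonuclease domain, fell 3.68-fold, from 22.1 and 22.8 CPM to 8.33 and 3.94 CPM (log2 -1.88, SE 0.326, edgeR adjusted p = 0.00436). The MOF cKO libraries of Wrn differed from each other by more than the controls did, and the log2 fold change ran from -2.51 to -1.43 as each library was left out. Blm (chr7:80454733-80535119), the RecQ helicase that dissolves crossed strands, fell from 45 and 39.7 CPM to 24.5 and 27.9 CPM (log2 -0.69, SE 0.144, edgeR adjusted p = 0.00887), while its cofactor Rmi1 had a log2 fold change of -0.15 (SE 0.149). Eme1 (chr11:94644996-94653964) fell from 19.9 and 16.1 CPM to 9.09 and 8.94 CPM (log2 -1.0, SE 0.196, edgeR adjusted p = 0.00718). Mus81 (chr19:5482345-5488402), the nuclease that works as a dimer with EME1, went the opposite way, at 19.8 and 20.1 CPM in controls and 37.6 and 26.4 CPM in MOF cKO. Its log2 fold change of 0.68 (SE 0.192) missed the threshold in edgeR (adjusted p = 0.0278) and passed it in DESeq2 (adjusted p = 0.00902), where 13.0% of tested genes were higher.

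Scaling and single libraries moved the count. With library size alone as the scaling, 23 of the genes were called lower, beside 19.7% of all tested genes. The median of all genes then lay at -0.32, and lower genes were 78.1% of all calls instead of 49%. Read against that median, 18 were called, beside 13.9% of all genes. In 1 fit over all 8 libraries, 8 were called, beside 9.07% of all genes. With each library left out in turn the count ran from 11 to 16, and Brca2, Xrcc2, Rad54b, Fancg, Fanci, Slx4 and Wrn were called lower under each of 13 alternatives. Without the first control or without the first MOF cKO library, Xrcc3, Blm and Eme1 were not called. Palb2 was lost without the first control, Brip1 without the second control or the first MOF cKO library, and Eme1 also without the second MOF cKO library.

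Other genes of these pathways were counted from lists of their own. Of 29 further recombination genes, 4 were lower (13.8%, beside 9.59% of all tested genes) and 0 higher. The median of the list lay at -0.46 on the log2 scale. The largest falls among the called genes were in Babam1, a subunit of the BRCA1-A complex (log2 -1.23, SE 0.149, edgeR adjusted p = 0.00114), in Helq, a repair helicase (-1.21, SE 0.232, adjusted p = 0.00649), and in Brcc3, the deubiquitinase of that complex (-0.90, SE 0.173, adjusted p = 0.00645). Of 12 further Fanconi genes, 3 were lower and 2 higher: the crosslink nuclease Fan1 fell (log2 -1.48, SE 0.243, edgeR adjusted p = 0.00351), whereas the nuclease subunit Ercc1 and the translesion polymerase Rev1 rose (2.06 and 1.02 on the log2 scale, SE 0.123 and 0.116, adjusted p = 0.000175 and 0.000928). Of 18 checkpoint genes, 4 were lower, led by the clamp subunit Hus1 at -1.36 and by Trp53bp1 at -1.20. Of 12 end joining genes, 4 were lower, led by the polymerases Poll at -2.73 and Polq at -1.41 and the kinase Prkdc at -1.19.

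**Figure D2:**
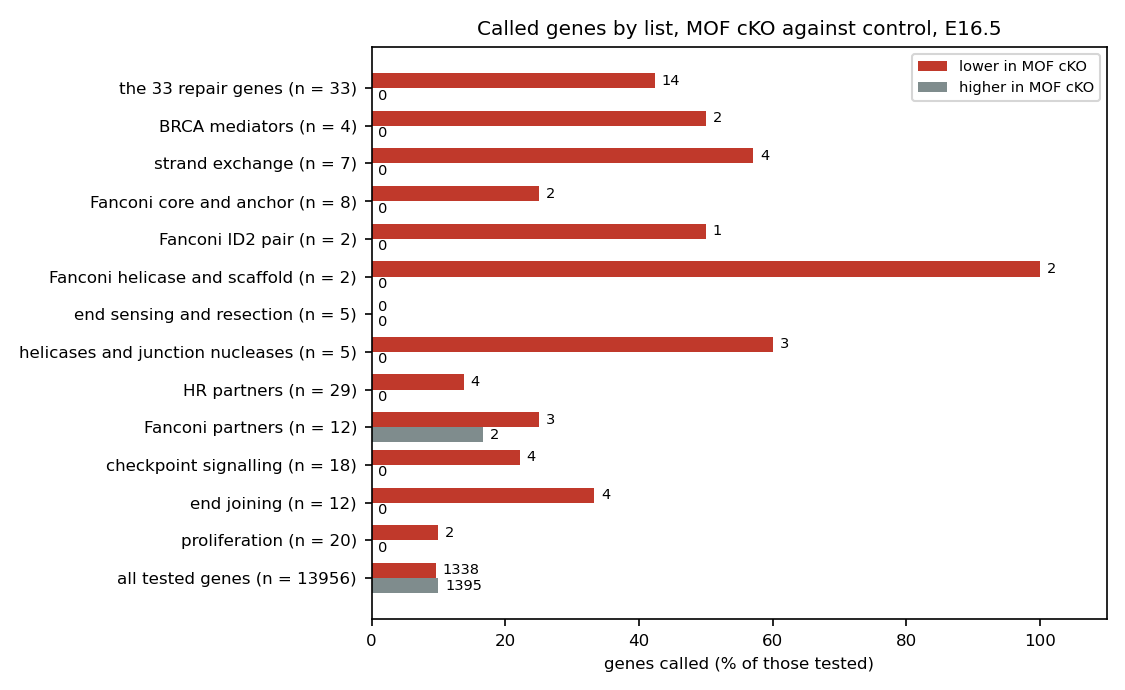
Bars give the percentage of tested genes called lower (red) or higher (grey) in MOF cKO against control at E16.5, from 0, for the 33 repair genes, their roles, 5 related lists and all tested genes, with the number called at the end of each bar. The bar of the 33 genes reaches 42.4% lower, above that of every related list, the highest of which is end joining at 33.3%, and above 9.59% of all genes.

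Recombination genes are commonly higher in dividing cells, and cycling genes were counted in the same libraries. Of 20 proliferation genes 2 were lower in MOF cKO (10%, beside 9.59% of all tested genes). These were the checkpoint kinase Bub1 (log2 -0.68) and the helicase subunit Mcm6 (-0.63), and the median of the list was -0.24. At an unadjusted edgeR p under 0.05, 8 of the 20 were lower and 0 higher, beside 3506 and 3314 of all tested genes. The summed level of the 20 genes was 3751.8 and 3411.3 CPM in controls and 2925.9 and 3061.0 CPM in MOF cKO. Markers of other cells also moved with genotype. Of 11 macrophage genes 8 were higher (median log2 fold change 5.19), from 21 and 46.2 CPM summed in controls to 110 and 138 CPM in MOF cKO. Fibroblast genes summed to 931 and 1588.9 CPM in controls and 1597.0 and 2222.1 CPM in MOF cKO, with 0 of 9 called in edgeR and 9 of 9 at an unadjusted p under 0.05, 8 of them higher; of all 13956 tested genes 6820 had such a p, 3314 of them higher. Endothelial genes (1 of 6 higher) summed to 6.78 and 8.09 against 14.4 and 26 CPM. Melanocyte genes (0 of 6 called, 1 at an unadjusted p under 0.05) summed to 18.1 and 49.4 against 20.4 and 74.9 CPM. The T cell genes Cd3d, Cd3g and Cd2 were at 0 in each E16.5 library. Cd3e did not pass the filter on low counts, with 0 and 1 counts in controls and 9 and 2 in MOF cKO. Among epithelial markers the suprabasal keratins Krt1 and Krt10 were higher (log2 1.67 and 1.12). The part of proliferation or of other cells in the lower repair genes was not tested.

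Many repair genes share a start region with a gene on the other strand, and those neighbours were read in the same libraries. For 12 of the 33 genes a protein-coding gene on the opposite strand starts within 1000 bp, and 11 of these neighbours passed the filter on low counts. Dctn5, a dynactin subunit that starts 56 bp from Palb2, was called lower with it (log2 -0.63, SE 0.126, edgeR adjusted p = 0.00763). Nbr1, an autophagy receptor 194 bp from Brca1, had a value of -0.41 (SE 0.109, adjusted p = 0.0219). Next to Rad54l at 150 bp, Pomgnt1, a glycosyltransferase, had a log2 fold change of 0.39 (SE 0.12, adjusted p = 0.0388), with both MOF cKO libraries above both controls. Emc3, 30 bp from Fancd2, was at -0.13 (SE 0.128), Mrpl27, 197 bp from Eme1, at -0.041 (SE 0.159), and Zfyve21, 297 bp from Xrcc3, at 0.092 (SE 0.174). Each of these 6 neighbours had a log2 fold change nearer to 0 than that of its repair gene. The pairs were named because the repair gene fell, so this order is largely set by that choice. The difference within pairs was not tested. Purg, 798 bp from Wrn, was at -0.52 (SE 0.439), and the neighbours of Atm, Mre11a, Fancb and Fancf ranged from -0.40 to 0.051. The lowest of these, Gas2 (SE 0.555), lay farther from 0 than its repair gene Fancf at 0.36 (SE 0.526).

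**Figure D3:**
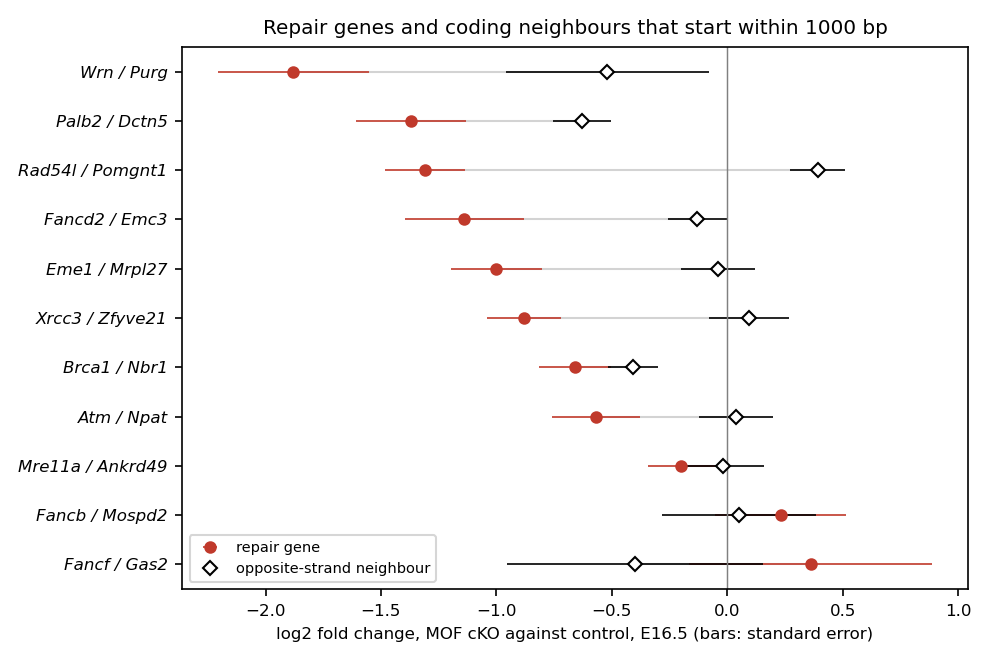
Red circles give the log2 fold change of a repair gene and open diamonds that of its opposite-strand coding neighbour starting within 1000 bp, in MOF cKO against control at E16.5, with standard errors as bars and pairs sorted by the repair gene. The top 7 repair genes reach from -1.88 to -0.66, while their neighbours lie between -0.63 and 0.39. The top pairs are picked by the fall of the repair gene itself, so that contrast is largely set by the sorting.

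In Kansl1 cKO epidermis no repair gene passed the test: 0 were lower and 0 higher in edgeR, as were 0% and 0% of all 13031 tested genes. At an unadjusted p under 0.05, 3 of the 33 were lower and 2 higher, beside 1077 and 968 of all genes. The median log2 fold change was -0.054, against 0.012 for all genes. Both Kansl1 cKO libraries lay below both controls for 4 of the 33 genes and above for 3, where 22.7% and 26.0% of all genes did so. The summed level was 418 and 524 CPM in controls and 543 and 455 CPM in Kansl1 cKO, and the ranges overlapped.

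Fancg had the lowest log2 fold change of the 33 genes in Kansl1 cKO. It read 8.82 and 10.9 CPM in the P0.5 controls and 3.2 and 3.64 CPM in the Kansl1 cKO libraries, a log2 fold change of -1.54 (SE 0.279, edgeR adjusted p = 0.176). DESeq2 called it (adjusted p = 0.0056), its single call among the 33 genes, where 0.483% of tested genes were lower. Rad51d stood at 12.6 and 15.9 against 8.09 and 6.8 CPM (log2 -0.94, SE 0.238, edgeR adjusted p = 0.204), and Xrcc2 at 5.04 and 5.37 against 2.42 and 3.08 CPM (-0.93, SE 0.327, adjusted p = 0.261). These 3 genes and Brca2 were the ones with both Kansl1 cKO libraries below both controls. Rad54b and Rbbp8 pointed the other way: Rad54b read 3.32 and 4.53 against 6.93 and 6.96 CPM (log2 0.80, SE 0.299, edgeR adjusted p = 0.28), and Rbbp8 73.4 and 89.7 against 132 and 119 CPM (0.62, SE 0.173, adjusted p = 0.218). Fancb was the remaining gene above both controls (0.37, SE 0.171).

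For the other genes that fell in MOF cKO, the Kansl1 cKO values lay between -0.37 and 0.39. Fanci had a log2 fold change of 0.11 (SE 0.359), Rad54l -0.10 (SE 0.474), Fanca 0.33 (SE 0.473), Brip1 0.39 (SE 0.395), Slx4 -0.26 (SE 0.327) and Eme1 -0.22 (SE 0.409). Brca2 stood at -0.20 (SE 0.188), Palb2 at -0.31 (SE 0.364), Wrn at -0.37 (SE 0.236), Xrcc3 at -0.22 (SE 0.292) and Blm at -0.12 (SE 0.264). Some of these genes were thinly counted: Rad54l was counted 20 and 84 times in the P0.5 controls, and Fanca 19 and 62 times. No difference was detectable for these 11 genes at this depth. Melanocyte and T cell markers lay above the controls and fibroblast markers mostly below (medians 1.15, 1.39 and -1.76 on the log2 scale, 0 called in edgeR, with 6 of 6, 4 of 4 and 7 of 9 at an unadjusted p under 0.05); their part in the repair gene values was not tested.

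Whether the effects of the knockouts differed was tested gene by gene in 1 fit over all libraries, as the MOF cKO effect minus the Kansl1 cKO effect. Of all 14565 tested genes, 1.17% had a called difference below 0 and 1.76% above. Rad54b was the 1 repair gene with a called difference, at -2.19 on the log2 scale (SE 0.321, edgeR adjusted p = 0.00533), having fallen in MOF cKO while both Kansl1 cKO libraries lay above their controls. The call was lost in the fit with a replicate block and when any 1 of 6 of the 8 libraries was left out, the exceptions being the second P0.5 control and the second Kansl1 cKO library. Next were Brca2 (-1.30, SE 0.244, edgeR adjusted p = 0.0121), Fanci (-2.09, SE 0.463, adjusted p = 0.0208), Rbbp8 (-0.83, SE 0.197, adjusted p = 0.0265) and Xrcc2 (-1.45, SE 0.361, adjusted p = 0.0313), which missed the threshold. For Fancg the difference was -0.74 (SE 0.423) and for Rad51d -0.37 (SE 0.445). The median difference over the 33 genes was -0.69, beside -0.065 over all genes. Stage and isolation also differ between the experiments and cannot be told apart from the gene deleted.

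**Figure D4:**
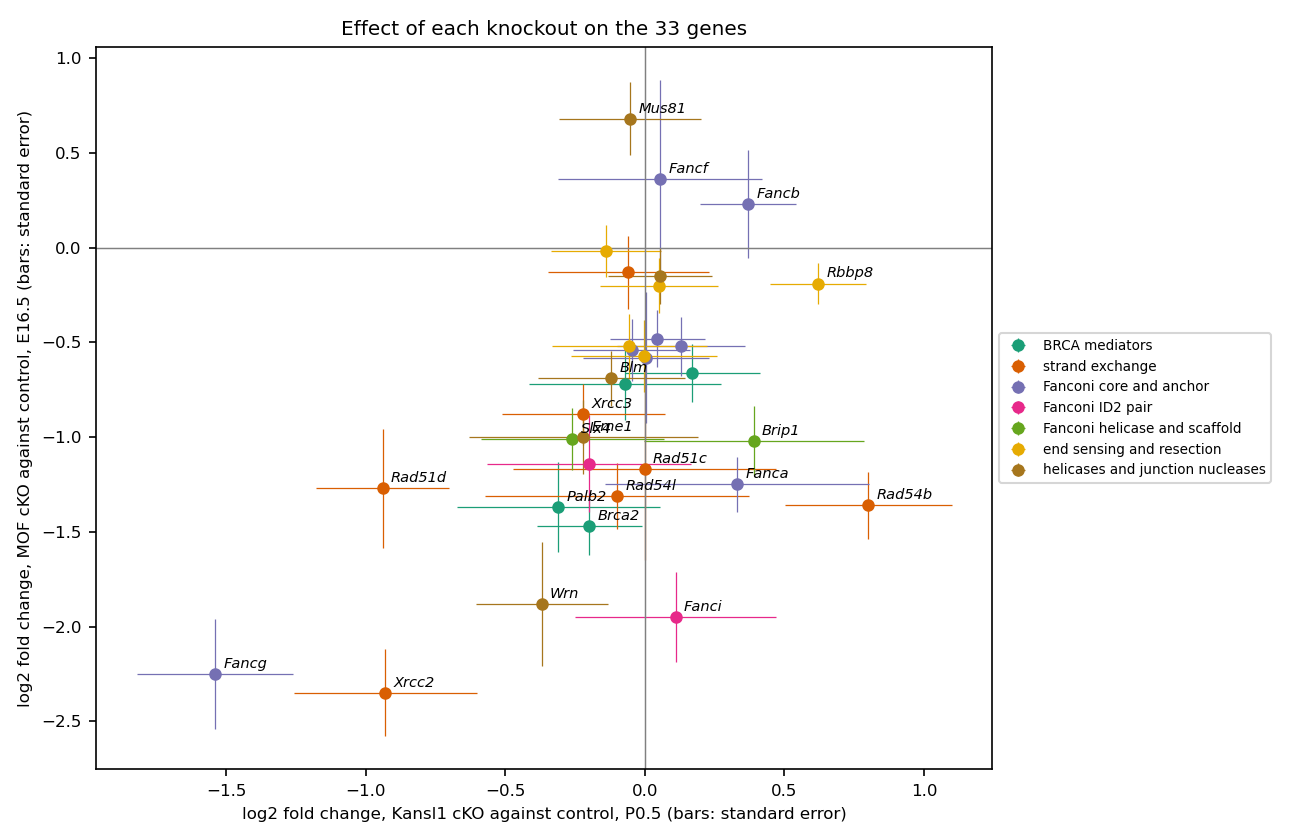
Each point is a repair gene, coloured by role, with its log2 fold change in Kansl1 cKO at P0.5 on the horizontal axis and in MOF cKO at E16.5 on the vertical axis, and standard errors as bars. Fancg, Xrcc2 and Rad51d lie low on both axes, Rad54b lies at -1.36 in MOF cKO and 0.80 in Kansl1 cKO, and most others spread along the vertical axis near a Kansl1 cKO value of 0.

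The controls themselves differed between E16.5 sorted cells and P0.5 epidermis. Of the 33 genes 17 were lower at P0.5 and 1 higher, where 20.6% of the 14565 tested genes were lower and 19.6% higher. The medians were -0.81 for the repair genes and -0.13 for all genes. Fanca had the largest difference (log2 -3.53, SE 0.354, edgeR adjusted p = 5.04e-05), followed by Rad51c (-2.75, SE 0.623, adjusted p = 0.00454), Rad54b (-2.44, SE 0.235, adjusted p = 4.20e-05) and Rad54l (-2.27, SE 0.365, adjusted p = 0.000681). The 4 BRCA mediators, the FANCD2-FANCI pair, Brip1 and Slx4 were all called lower, as were Xrcc2, Xrcc3, Eme1, Fancm and Mre11a, at log2 fold changes of -1.40, -1.25, -1.97, -0.81 and -0.75. Fancb was the 1 gene called higher at P0.5, at 6.91 ± 0.564 CPM (SD, n = 2) in E16.5 controls and 18.8 ± 0.181 CPM in P0.5 controls (log2 1.44, SE 0.229, edgeR adjusted p = 0.00064). Of the 20 proliferation genes 16 were lower at P0.5. Markers of some other cells were mostly higher there: 10 of 11 macrophage genes (median log2 fold change 6.38), 6 of 6 melanocyte genes (4.11) and 3 of 4 T cell genes (7.26). The macrophage gene Cd68 had a log2 fold change of -1.59 (SE 0.453) and was not called. Of 9 fibroblast genes 1 was higher (median 0.53), and of 6 endothelial genes 0 were called (median -0.40). The suprabasal keratins Krt1 and Krt10 were higher as well (log2 4.47 and 3.75). The part of the cells marked by these genes or of proliferation in the stage difference of the repair genes was not tested. With library size alone, lower genes made up 67.1% of all calls instead of 51.2%, and 19 repair genes were called lower, beside 30% of all genes. Without either E16.5 control or without the first P0.5 control, fewer repair genes and fewer of all genes were called lower. The medians of the repair genes were then -0.69, -0.70 and -0.74, beside -0.098, 0 and -0.13 over all genes. This comparison shares its E16.5 controls with the MOF cKO comparison, and stage, isolation and sequencing cannot be told apart in it.

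Per kilobase of exon, the 33 genes ranged in E16.5 controls from 1.13 ± 0.272 CPM per kb (SD, n = 2) for Fancf to 9.86 ± 0.0194 for Nbn. Nbn, Fance and Rad50 led the order, at 9.86 ± 0.0194, 9.79 ± 1.34 and 8.37 ± 1.39 CPM per kb. Nbn and Fance do not differ beyond their spread, and neither do Fance and Rad50 when the SDs of both are counted. In MOF cKO, Nbn stood at 9.76 ± 0.492 CPM per kb, Mus81 at 8.28 ± 2.06 and Fance at 7.02 ± 0.158. The lowest in MOF cKO were Xrcc2 at 0.554 ± 0.0324, Palb2 at 0.68 ± 0.0608 and Wrn at 0.745 ± 0.378 CPM per kb. At P0.5, Nbn was again high at 12.7 ± 0.0323 CPM per kb in controls, and Rad51c was lowest at 0.254 ± 0.202.

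**Figure D5:**
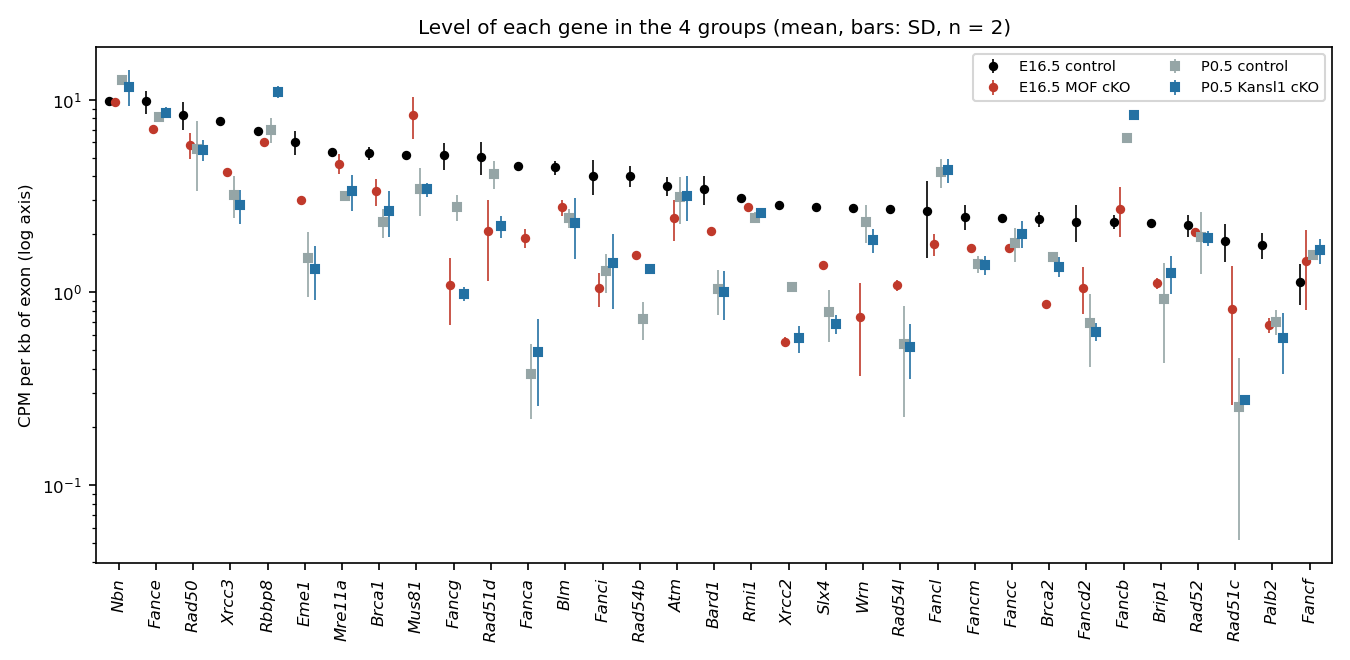
Points give the mean level of each gene in CPM per kb of exon, on a log axis, in the 4 groups, with the SD of 2 libraries as bars and genes sorted by level in E16.5 controls. The P0.5 groups (squares) lie close to each other for most genes, and Xrcc2, Fancg, Fanci and Wrn are among those whose E16.5 MOF cKO point lies farthest below the E16.5 control point.

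Several of these genes overlap another coding gene in the annotation. Among the called ones, Fanci overlaps Polg by 4034 bp, Xrcc3 overlaps Klc1 by 4653 bp, Rad54l overlaps Lrrc41 by 2780 bp, Fanca overlaps Zfp276 by 1446 bp and Gm20388 by 50277 bp, and Eme1 overlaps Lrrc59 by 221 bp, each on the opposite strand. Rad54b overlaps Fsbp by 7927 bp on the same strand. The strand setting of the counting is not given in the sources used here, so the counts of these genes are less certain. Reads that fit more than 1 gene were set apart by the counter and made up 0.95 to 1.31% of a library.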

How the data were processed

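Polyadenylated RNA was sequenced with a directional kit as paired reads. Per the methods the authors aligned reads with HISAT2, whereas the submitters' processing notes name TopHat2 and HTSeq on mm10. The deposited values are raw counts of reads per gene symbol, which the authors had not normalized or pooled. Rows that name no gene held 21.1 to 26% of a library and were left out. Counts were filtered with filterByExpr, scaled by TMM and tested with edgeR 4.0.16 (quasi-likelihood, Benjamini-Hochberg over all genes) in R 4.3.3, with DESeq2 1.42.0 as an alternative. The MOF and Kansl1 experiments were fitted apart; the P0.5 against E16.5 control contrast and the difference of effects came from 1 fit over all libraries. Calls needed an adjusted p under 0.01 and over 1.5-fold, the authors' thresholds. The procedure was tested on simulated data. Coordinates came from GENCODE M21, which matched 98.4% of symbols. The number of libraries, 2 per group, limits precision; the labels do not name the animals, so p-values measure the spread between these libraries, which may be technical. The 33 genes, the related lists and the tests were chosen with earlier results of these data known. Each of the 33 genes called in a genotype comparison or in the difference of effects is described with its value in each library, and of each related list at most 3 called genes are named by size. Single-cell and chromatin data were not analysed here.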

Additional observations from a re-analysis of the deposited data

Results flagged for a closer look

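Rad54b is given again because it was the 1 repair gene with a called difference in a test of the difference itself. That is 3.03% of the 33 genes, where 1.17% of all 14565 tested genes had a called difference below 0 and 1.76% above. Stage and isolation also differ between the experiments and cannot be told apart from the gene deleted. The MOF cKO effect minus the Kansl1 cKO effect was -2.19 on the log2 scale (SE 0.321, edgeR adjusted p = 0.00533 in the fit over all 8 libraries). Both MOF cKO libraries lay below both of their controls and both Kansl1 cKO libraries lay above both of theirs. The P0.5 controls held only 29 and 70 counts of Rad54b, and the gene overlaps Fsbp by 7927 bp on the same strand. DESeq2 also called this difference, with an adjusted p of 2.54e-05. The edgeR call was lost with a replicate block and when any 1 of 6 of the 8 libraries was left out.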

How the results depend on the processing

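Alternatives were other tests, scalings, filters, thresholds and fits, and leaving out each library. Of 445 values of single repair genes, 374 kept their direction and side of the threshold, 24 lost a call, 40 gained one and 7 changed sign, the last being Nbn at 0.0098 with DESeq2, at 0.0098 with median-of-ratios factors and from -0.071 to 0.034 without 1 library, Fancb at -0.071 with library size alone, and 3 genes whose values without 1 library ran from -0.11 to 0.49 (Fancb), from -0.26 to 0.014 (Rad52) and from -0.19 to 0.76 (Fancf). In MOF cKO, library size alone gave 23 lower genes (19.7% of all tested genes) and a median of -1.03. The fit over all libraries gave 8 lower (9.07% of all). In DESeq2, the likelihood ratio test, every gene with at least 1 count, an adjusted p of 0.05 and the replicate block, 1 higher gene was called. Of all tested genes, 1816 to 1943 were higher in these settings. In Kansl1 cKO, 1 lower gene was called with DESeq2, the likelihood ratio test and every gene with at least 1 count. These settings called 0.483%, 0.875% and 0.674% of all tested genes lower. For the difference of effects, 3 were called with DESeq2, where 3.56% of all tested genes had a called difference below 0. The likelihood ratio test called 6 (5.5% of all), and 5 were called with every gene with at least 1 count (2.92%). At an adjusted p of 0.05 the number was 5 (6.76%), and with the replicate block it was 0 (0.275%). With 1 library left out, a lone library is assumed to vary like the other groups. The counts then ran from 11 to 16 lower and 0 to 1 higher in MOF cKO (median -0.91 to -0.61), 0 to 0 in Kansl1 cKO (median -0.25 to 0.21), 6 to 17 lower and 1 to 1 higher at P0.5, and 0 to 2 for the difference. The cause of these changes was not tested.

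Replicate numbers were shared between groups. The labels do not say that a number marks a litter, so samples were taken to share only a number; replicate deviations correlated at 0.206 over genes in the MOF experiment and -0.202 in the Kansl1 experiment. With the replicate block, 19 repair genes were lower in MOF cKO, beside 16.2% of all tested genes. Brca1, Bard1, Rad51c, Rad51d and Fancd2 joined the 14, Mus81 was higher, and 0 were called in Kansl1 cKO. A crossed pairing of the Kansl1 experiment, chosen after seeing the data, called 0 repair genes and 1 gene in all; reading folds against the median of all genes was also chosen then.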
